A study of Mus musculus with 8 samples.

Results

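Messenger RNA levels of 10 contractile genes of myofibroblasts and smooth muscle were followed in fibrotic mouse liver: Acta2, Tagln, Myl9, Cnn1, Cnn2, Des, Actg2, Tpm2, Myh11 and Lmod1. They were chosen by name, with earlier results of these data known. A probe was kept if the scanner software flagged its signal as well above background on 4 or more of the 8 arrays, which held for 8 of the 12 probes of these genes and for 24890 of all 55657 probes. The kept probes belong to 6 of the 10 genes (of 18554 gene names with a kept probe in all), Acta2, Tagln, Myl9, Cnn2, Des and Tpm2. Des, on 4 arrays, lay just inside that limit and Cnn1, on 2 arrays, was the nearest outside it. Actg2, Myh11 and Lmod1 were well above background on 1 array each.

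All 8 samples were livers of male mice that had gone through 5 weeks of fibrosis induction and were then observed for 1 or 2 weeks, with an injection every 3 days. The induction agent was TAA, an abbreviation the labels do not expand and which usually stands for thioacetamide, or CCl4 (carbon tetrachloride), both liver toxins. The injected oligonucleotide was miR-29a or a negative control nucleotide (NC). The 8 groups, each with 1 array, were TAA for 2 weeks with miR-29a or with NC, TAA for 1 week with miR-29a or with NC, and the same 4 combinations under CCl4, where the weeks count the observation. No liver without fibrosis induction and no liver without an injection is among them, and the labels give neither strain nor age, nor the number of animals behind a sample.

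In smooth muscle and in myofibroblasts, force comes from myosin filaments that pull on actin filaments. Smooth muscle actin (Acta2) and its enteric relative (Actg2) form the thin filaments, tropomyosin (Tpm2), the calponins (Cnn1, Cnn2) and transgelin (Tagln, also called SM22) bind along them, leiomodin (Lmod1) starts new ones, myosin heavy chain (Myh11) with its regulatory light chain (Myl9) is the motor, and desmin (Des) is the intermediate filament that ties the apparatus together. In liver, hepatic stellate cells and portal fibroblasts take on part of this set when they become scar-forming myofibroblasts, while Myh11 and Cnn1 mark the muscle of vessel walls. Many of these genes are controlled by serum response factor (SRF) with myocardin-family coactivators, which bind a short DNA element called the CArG box.

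The promoters of 7 members were in the RefSeq table used (build GRCm38.p6), those of Acta2, Cnn1, Cnn2, Des, Lmod1, Myl9 and Tpm2, and were searched on both strands for the CArG box, exact or with 1 base off within its 6-base A/T core. The windows of 300 bases start 250 bases before the annotated start. Myl9, Cnn2 and Acta2 held a match, and their stretches are shown because these 3 genes are among those measured on all 8 arrays. Each is written 5′ to 3′ on the gene's strand, with the match in capitals.
Myl9, chr2:156775263-156775414, plus strand: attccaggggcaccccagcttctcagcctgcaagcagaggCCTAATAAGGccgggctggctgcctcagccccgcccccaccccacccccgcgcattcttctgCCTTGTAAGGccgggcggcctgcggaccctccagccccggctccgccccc
Cnn2, chr10:79988504-79988593, plus strand: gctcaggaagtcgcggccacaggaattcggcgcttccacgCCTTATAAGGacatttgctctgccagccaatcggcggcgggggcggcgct
Acta2, chr19:34255374-34255497, minus strand: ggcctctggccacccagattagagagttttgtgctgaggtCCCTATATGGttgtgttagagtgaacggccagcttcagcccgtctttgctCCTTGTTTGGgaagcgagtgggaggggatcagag
The Cnn2 match is exact and begins 56 bases before the start. In Myl9 the exact match begins 161 bases before the start and the other, 1 base off, 99 bases before it. Both Acta2 matches are 1 base off, at 84 and 34 bases before the start. Of all 32851 promoter windows there, 1.63% held an exact match and 9.98% held an exact or a 1-base-off match. No match in the Cnn1, Des, Lmod1 and Tpm2 windows says only that these letters are not in those 300 bases.

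The injected microRNA belongs to a family of 3 mature sequences with one seed (bases 2 to 8, in capitals), given here from RefSeq (GRCm38.p6) because the study turns on it. The labels do not name the arm, and the 3-prime arms are shown.
miR-29a-3p, chr6:31062673-31062694, minus strand: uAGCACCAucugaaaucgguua
miR-29b-3p: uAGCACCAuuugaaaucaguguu
miR-29c-3p: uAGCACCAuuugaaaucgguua
The DNA letters complementary to that seed, TGGTGCT, were in 0 of the 12 probe sequences of the members and in 0.557% of all 55681 probe sequences. A probe covers 60 bases, so this says nothing about the rest of a transcript.

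Between 43.9% and 48.4% of an array's non-control spots were marked well above background. The background-corrected signal had its 75th percentile between 136 and 219 intensity units. Levels below are log2 of the signal over that percentile, so a level of 0 means a spot as bright as the 75th percentile of its array. They compare arrays for 1 probe and do not compare genes with each other. All 8 hepatocyte markers examined, such as albumin and transthyretin, were well above background on every array. With 1 array per combination there is no replicate within a group, and the precision is limited by how few arrays there are. Each comparison below is the mean of 4 matched differences, fitted over all 8 arrays with limma, and the p-values measure only the spread between these samples. All arrays lay on 1 slide with 1 scan time, the CCl4 arrays in one row and the TAA arrays in the other, so slide row and agent cannot be told apart.

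Among the thin filament actins, Acta2 was the one measured throughout. Its probe (mm9 chromosome 19, 34316060 to 34316119, minus strand) was well above background on all 8 arrays. Under TAA its level was −1.24 with miR-29a and −1.78 with NC at 2 weeks, and −0.21 with miR-29a and −0.20 with NC at 1 week. Under CCl4 its level was −0.98 with miR-29a and −0.93 with NC at 2 weeks, and 1.22 with miR-29a and −0.06 with NC at 1 week. The 4 arrays of 2 weeks thus all lay below the 4 of 1 week, and the CCl4 1-week miR-29a array stood highest. This probe was printed 10 times per array, and the SD between its spots was between 0.07 and 0.15 log2 on every array, a technical error within an array. Actg2 (mm9 chromosome 6) was well above background on the CCl4 1-week miR-29a array alone.

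**Figure D1:**
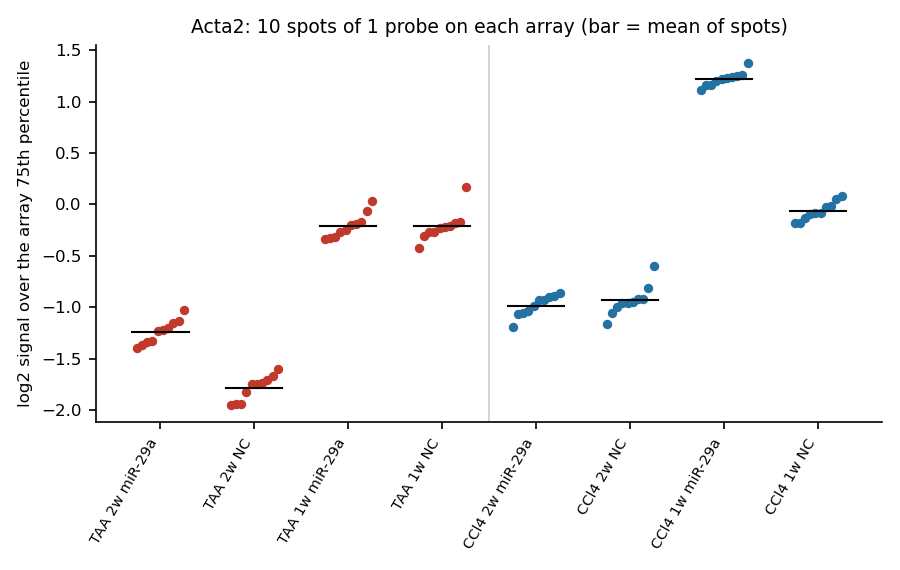
Acta2 level in each of the 10 spots of its probe on the 8 arrays, in log2 signal over the array's 75th percentile (y axis), TAA arrays in red and CCl4 arrays in blue, with a bar at the mean of the spots. Spots of an array lie close together, and all spots of the 2-week arrays lie below all spots of the 1-week arrays of either agent.

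Tagln, which binds and bundles actin, was well above background on all 8 arrays (mm9 chromosome 9, 45738097 to 45738156). Under TAA its level was 2.36 with miR-29a and 1.97 with NC at 2 weeks, and 2.72 with miR-29a and 3.49 with NC at 1 week. Under CCl4 it was 2.54 with miR-29a and 2.90 with NC at 2 weeks, and 3.15 with miR-29a and 3.45 with NC at 1 week. Each 2-week array was below its 1-week counterpart, although the CCl4 2-week NC array was above the TAA 1-week miR-29a array. Both NC arrays of 1 week were the highest.

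Cnn2, the calponin that non-muscle cells also make, had 2 probes, both well above background on all 8 arrays. The brighter one (mm9 chromosome 10, 79457785 to 79457844) read −0.20 with miR-29a and −0.41 with NC at 2 weeks of TAA, and −0.75 with miR-29a and 0.51 with NC at 1 week of TAA. Under CCl4 it read −0.65 with miR-29a and −0.32 with NC at 2 weeks, and −0.39 with miR-29a and 0.09 with NC at 1 week. On this probe the TAA 1-week NC array stood highest and its miR-29a partner lowest. The second probe, upstream on the same strand (79457370 to 79457429), read −0.82 with miR-29a and −1.24 with NC at 2 weeks of TAA, and −0.84 with miR-29a and −0.77 with NC at 1 week of TAA. Under CCl4 it read −1.43 with miR-29a and −1.06 with NC at 2 weeks, and −0.85 with miR-29a and −0.87 with NC at 1 week. The probes disagree most on 1 array, where their deviations from their own means differ by 0.63 log2, and the wide gap of the TAA 1-week pair on the brighter probe is not seen on the second.

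Tpm2 (beta-tropomyosin) had 2 kept probes, designed on different transcripts. Their sequences as given in the files, on the minus strand of mm9 chromosome 4, show which stretches of the gene are read.
Tpm2 brighter probe, chr4:43532262-43532321: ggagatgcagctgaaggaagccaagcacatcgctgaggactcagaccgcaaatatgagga
Tpm2 second probe, chr4:43531276-43531335: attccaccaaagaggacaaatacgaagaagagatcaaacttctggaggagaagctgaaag
The brighter probe read −0.93 with miR-29a and −0.23 with NC at 2 weeks of TAA, and −1.73 with miR-29a and −1.46 with NC at 1 week of TAA. Under CCl4 it read −0.41 with miR-29a and 0.27 with NC at 2 weeks, and 0.21 with miR-29a and −0.48 with NC at 1 week. The TAA 1-week arrays were the lowest, the reverse of Acta2 and Tagln, whose TAA arrays were lower at 2 weeks. The second probe read −1.20, −0.68, −2.09 and −1.91 on the TAA arrays and −0.45, 0.01, −0.06 and −0.58 on the CCl4 arrays, in the same order of groups. On the second probe the 2 agents do not overlap, and the deviations of the 2 probes differ by at most 0.23 log2 on an array.

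Myl9, the regulatory light chain whose phosphorylation switches the motor on, was well above background on all 8 arrays (mm9 chromosome 2, 156607301 to 156607360). Under TAA it was 1.48 with miR-29a and 1.19 with NC at 2 weeks, and 1.23 with miR-29a and 1.50 with NC at 1 week. Under CCl4 it was 1.32 with miR-29a and 2.00 with NC at 2 weeks, and 2.53 with miR-29a and 2.39 with NC at 1 week. The TAA arrays lay in a narrow band, and 3 of the 4 CCl4 arrays lay above all of them, with the CCl4 2-week miR-29a array inside the band.

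Des was dim (mm9 chromosome 1; the files give its 60-base probe a span of more than 60 bases, 75363404 to 75363629). Under TAA its level was −2.95 with miR-29a and −3.21 with NC at 2 weeks, and −4.05 with miR-29a and −3.70 with NC at 1 week. Under CCl4 it was −3.98 with miR-29a and −3.18 with NC at 2 weeks, and −3.06 with miR-29a and −2.99 with NC at 1 week. Taking a probe as well above background where at least 50% of its spots are, the 4 arrays that measured Des were TAA 2-week miR-29a, CCl4 2-week NC and both CCl4 1-week arrays. Its spots scattered more than those of Acta2, with an SD between 0.15 and 0.57 log2, and on the other arrays the value is only a bound.

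**Figure D2:**
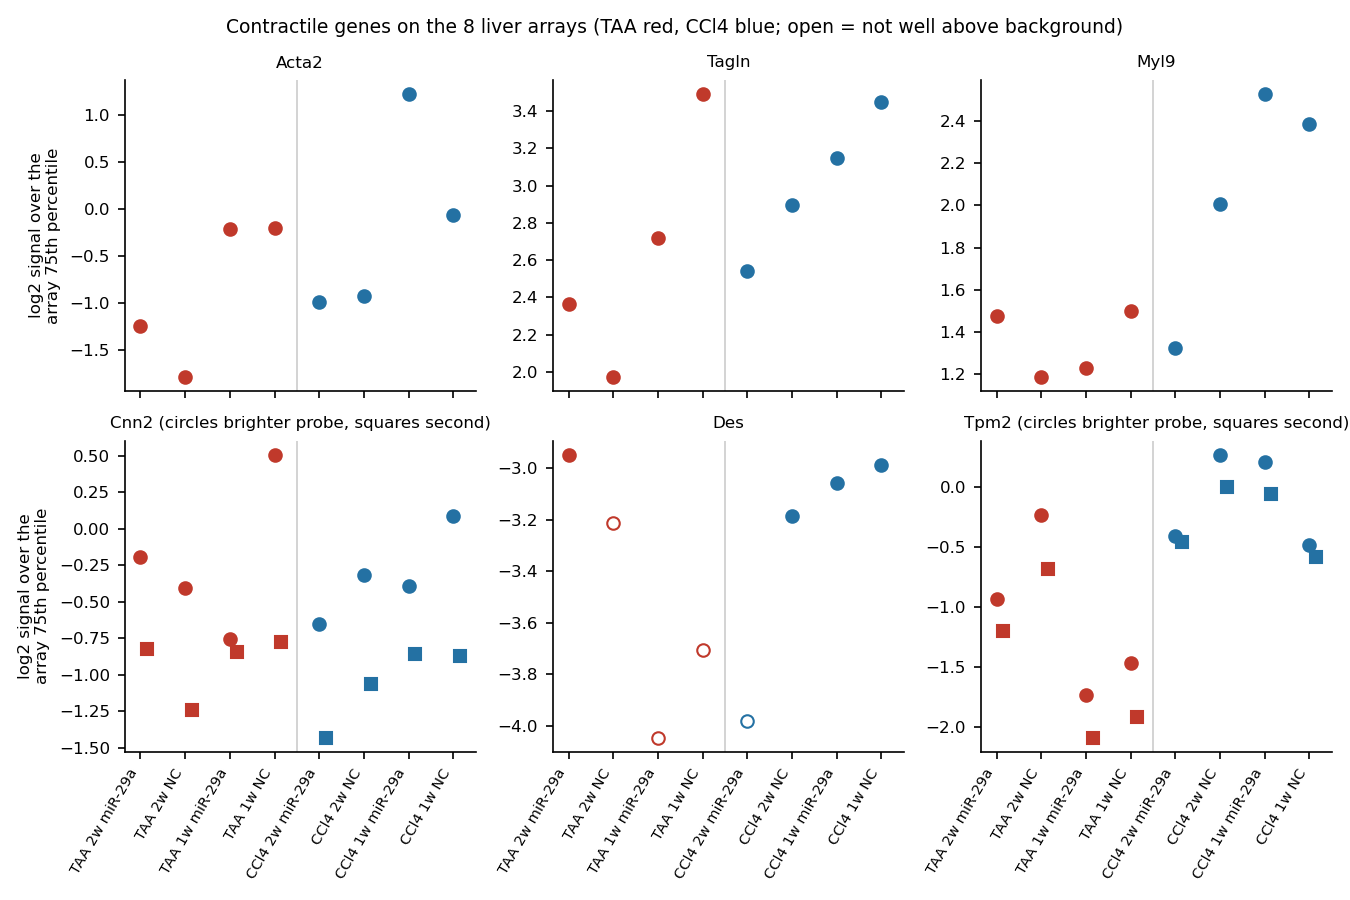
Levels of the 6 genes with kept probes on the 8 arrays (y axis, log2 signal over the array's 75th percentile, a separate scale per panel), TAA in red and CCl4 in blue, with open symbols where the probe was not well above background. Acta2 and Tagln are lower on each 2-week array than on its 1-week counterpart, whereas both Tpm2 probes are lowest on the TAA 1-week arrays.

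The comparison of 2 weeks with 1 week follows these genes after the induction ended. Acta2 averaged −1.23 ± 0.39 at 2 weeks and 0.19 ± 0.69 at 1 week (SD, n = 4 each), a difference of −1.42 ± 0.24 log2 (SE), 2.67-fold lower. The 4 matched differences were −1.03 and −1.58 under TAA, with miR-29a and with NC, and −2.20 and −0.86 under CCl4, in the same order. Tagln averaged 2.44 ± 0.38 at 2 weeks and 3.20 ± 0.36 at 1 week (SD, n = 4 each), a difference of −0.76 ± 0.21 (SE), with all 4 pairs lower. Being lower in all 4 pairs held for 2 of the 6 genes, Acta2 and Tagln, and for 5.79% of all probes tested. Acta2 alone among the 6 had groups that do not overlap, which in that direction held for 1.32% of all probes. Neither passed the test across all probes: in limma the unadjusted p was 8.56e-04 for Acta2 and 0.00983 for Tagln, and the adjusted p was 0.855 and 0.906. In bulk liver, fewer cells of a type and less RNA per cell cannot be told apart.

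The other members did not share one direction between the weeks. Myl9 differed by −0.41 ± 0.24 and was lower at 2 weeks in 3 of 4 pairs. Cnn2 differed by −0.26 ± 0.24 on the brighter probe and by −0.31 ± 0.16 on the second, each with 3 of 4 pairs lower. Both Tpm2 probes pointed the other way, with 0.54 ± 0.31 on the brighter and 0.58 ± 0.27 on the second probe and 3 of 4 pairs higher. Des, at 2 weeks, was at least 1.27-fold higher in the TAA miR-29a pair, at least 1.35-fold lower in the CCl4 miR-29a pair and at −0.20 log2 in the CCl4 NC pair, and in the TAA NC pair it was not well above background on either array. Its fitted mean of 0.12 ± 0.33, like every fitted Des value below, takes the dim readings at face value. Limma called 0 of the 8 member probes, as it called 0 of 24890 probes in all (0% called). At an unadjusted p under 0.05 were 2 member probes, against 5.04% of all probes. The median of the 6 genes was −0.33, beside 0.04 over all probes. By pair it was 0.40 (miR-29a) and −0.61 (NC) under TAA, and −0.77 and −0.39 under CCl4, in the same order.

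Other genes of scar-forming and vessel wall cells were read over the same weeks. All 9 measured genes of fibrillar collagen and scar matrix had negative means at 2 weeks (median −0.67), with Ctgf, a matrix growth factor, at −1.18 ± 0.32, Col3a1 at −0.96 ± 0.19 and Col1a1 at −0.93 ± 0.32, each lower in 4 of 4 pairs. All 7 measured portal fibroblast markers also had negative means (median −0.42). Fbln2, at −0.56 ± 0.19, was lower in 4 of 4 pairs, whereas Pi16 and Mfap4 had larger means, −0.91 ± 0.76 and −0.66 ± 0.32, without one sign in all 4. Of 14 stellate cell markers 12 had positive means (median 0.17), but most of them rose under TAA only. Under TAA 11 were higher and 3 lower with miR-29a (median 0.39), and 10 higher and 4 lower with NC (0.30). Under CCl4 it was 6 higher and 8 lower with miR-29a (−0.03), and 4 higher and 10 lower with NC (−0.23). The 8 measured vascular smooth muscle and pericyte markers had 4 positive and 4 negative means (median −0.03). Of these lists 0 genes passed the adjusted threshold in limma, with 5 matrix genes, 2 portal fibroblast markers and 0 of the other lists at an unadjusted p under 0.05, against 5.04% of all probes. Their part in the Acta2 and Tagln values was not tested.

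The comparison of TAA with CCl4 sets the induction agents side by side. Tpm2 averaged −1.09 ± 0.66 under TAA and −0.10 ± 0.40 under CCl4 on the brighter probe (SD, n = 4 each), a difference of −0.99 ± 0.31 (SE). On the second probe it averaged −1.47 ± 0.65 under TAA and −0.27 ± 0.29 under CCl4, a difference of −1.20 ± 0.27. Acta2 differed by −0.67 ± 0.24, with matched differences of −0.25, −0.85, −1.43 and −0.14. These were the 2 genes lower under TAA in all 4 pairs, which held for 25.2% of all probes. Groups without overlap, as on the second Tpm2 probe, were found in that direction for 16.7% of all probes.

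Myl9 averaged 1.35 ± 0.16 under TAA and 2.06 ± 0.54 under CCl4 (SD, n = 4 each), a difference of −0.71 ± 0.24, and was lower under TAA in 3 of 4 pairs. Tagln differed by −0.37 ± 0.21, also lower in 3 pairs, and Des by −0.18 ± 0.33, with 1 array of each Des pair not well above background. Cnn2 had means on the other side, 0.11 ± 0.24 on the brighter and 0.13 ± 0.16 on the second probe. Limma called 0 of 8 member probes and 0 of 24890 probes in all (0% called), with adjusted p of 0.144 for both Tpm2 probes, 0.148 for Myl9 and 0.156 for Acta2. At an unadjusted p under 0.05 were 4 member probes, those of Acta2, Myl9 and both of Tpm2, against 27.4% of all probes. The median of the 6 genes was −0.52, beside −0.12 over all probes. By pair it was −0.01 (miR-29a) and −0.66 (NC) at 2 weeks, and −1.14 and −0.43 at 1 week, in the same order.

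These agent differences depend on the scaling. With each array's median in place of its 75th percentile, the median difference of all probes moved by −0.39 log2 and limma called 4874 probes, 250 higher and 4624 lower under TAA. Acta2, Tagln, Myl9 and both Tpm2 probes were then among the lower ones, each with an adjusted p of 0.0489, and both Cnn2 probes turned to −0.28 and −0.26. Without the CCl4 2-week pair limma called 6393 probes and without the TAA 2-week pair 7431, Myl9 and the second Tpm2 probe under both, Des only without the CCl4 2-week pair and the brighter Tpm2 probe only without the TAA 2-week pair.

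**Figure D3:**
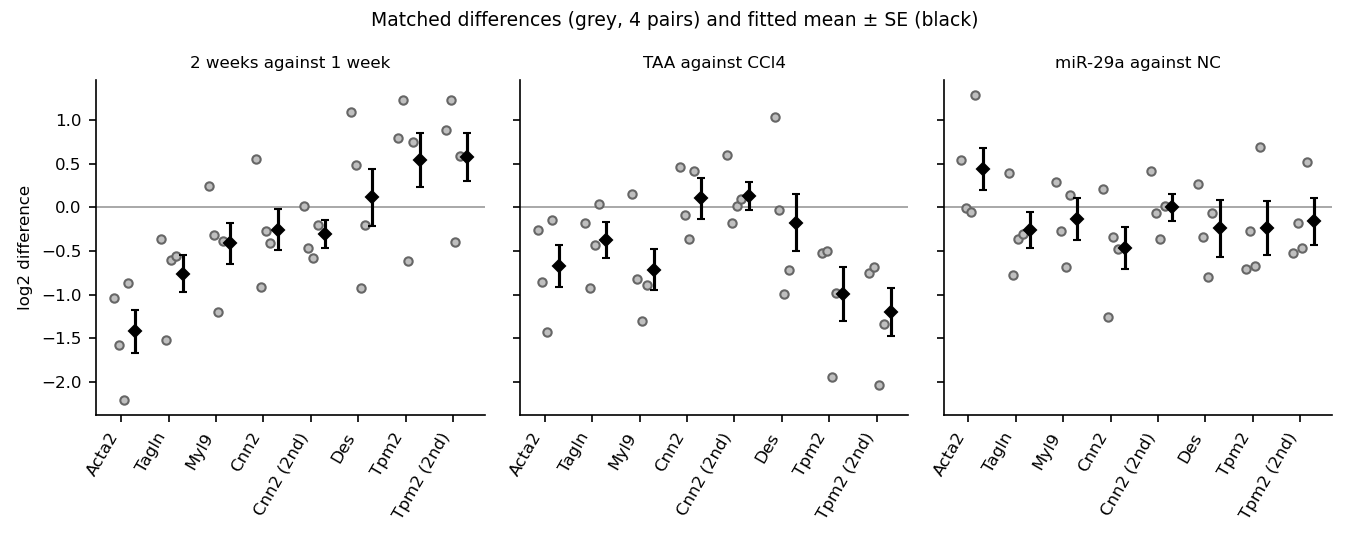
Differences of the 8 kept probes in log2 (y axis) for 2 weeks against 1 week, TAA against CCl4 and miR-29a against NC, with the 4 matched pairs as grey circles and the fitted mean ± SE as black diamonds. The Acta2 and Tagln circles all lie below 0 for the week, those of Acta2 and both Tpm2 probes all lie below 0 for the agent, and each gene has circles on both sides of 0 for the oligonucleotide. Des is drawn from its readings on dim arrays too.

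The comparison of miR-29a with NC is the one in the study's title. None of the 6 genes had the same sign in all 4 pairs, while 5.71% of all probes were lower and 9.98% higher in all 4. Acta2 averaged −0.30 ± 1.11 with miR-29a and −0.74 ± 0.79 with NC (SD, n = 4 each), a difference of 0.44 ± 0.24 (SE), and leaving out the CCl4 1-week arrays made it smaller, 0.20 for miR-29a, 0.26 for NC and 0.16 for the pair. Its matched differences were 0.54 at 2 weeks and −0.00 at 1 week under TAA, and −0.06 at 2 weeks and 1.28 at 1 week under CCl4. Tagln differed by −0.26 ± 0.21, with 3 of 4 pairs lower, and the value was −0.087 without the TAA 1-week NC array and −0.47 without the TAA 2-week NC array. On the brighter Cnn2 probe the difference was −0.46 ± 0.24, again with 3 pairs lower. Its matched differences were 0.21 and −1.26 in the TAA pairs and −0.34 and −0.47 in the CCl4 pairs, at 2 weeks and then at 1 week, and without the TAA 1-week pair the mean was −0.20. The second Cnn2 probe had a mean of 0.00 ± 0.16, with 0.42 and −0.07 in the TAA pairs and −0.37 and 0.01 in the CCl4 pairs, in the same order.

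Myl9 differed by −0.13 ± 0.24, Des by −0.24 ± 0.33 and Tpm2 by −0.24 ± 0.31 on the brighter and −0.16 ± 0.27 on the second probe. Limma called 0 of 8 member probes (adjusted p of 1.00 for each) and 0 of 24890 probes in all (0% called). At an unadjusted p under 0.05 were 0 member probes, against 2.61% of all probes. The median of the 6 genes was −0.24, beside 0.03 over all probes, but it was 0.28 in the TAA 2-week pair, −0.30 in the TAA 1-week pair, −0.52 in the CCl4 2-week pair and 0.04 in the CCl4 1-week pair. In the CCl4 2-week pair all 6 genes were lower with miR-29a, as were 49.3% of all probes. In the TAA 1-week pair 4 of the 6 were lower, as were 37.6% of all probes, while Acta2 differed by less than the SD between its spots and Des was not well above background on either array. In the TAA 2-week pair 5 of 6 were higher, as were 47.1% of all probes.

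Other cell types differed within the same pairs. In the TAA 1-week pair the summed signal of macrophage and Kupffer cell markers, in multiples of the array's 75th percentile, was 65.5 with miR-29a and 332 with NC, and it was between 45.8 and 80.9 on the other arrays. In the CCl4 1-week pair the median difference of the 7 measured mesothelial markers was −2.26. Of the 10 mesothelial markers on the array, 7 were well above background with miR-29a and 10 with NC. Their summed signal was 94.6 with miR-29a and 136 with NC. Krt8, a keratin that hepatocytes also make, was most of it, and without Krt8 the sum was 2.62 with miR-29a and 17.5 with NC, against 1.78 to 6.02 on the other arrays.

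Genes known from skeletal muscle were seen on every array, in differing numbers. Of 15 listed, 5 were well above background on the TAA 1-week miR-29a array, 9 on the CCl4 2-week NC array and 7 on the CCl4 1-week NC array, against 2 to 4 on the others. Their summed signal on those 3 arrays was 4.24, 4.48 and 3.10, and it was between 1.45 and 2.07 on the other 5. Myh4, a fast muscle myosin, Acta1, the skeletal muscle actin, and Tnnc2, a fast muscle troponin, were well above background on these 3 arrays alone, while Myh1, Mylpf, Actn3, Mb and Casq1 were so on none. Of the rest, Tnni2 and Pvalb were well above background on all 8 arrays, and Atp2a1 on 6, not on either TAA 1-week array. Pvalb, with levels between −0.32 and 0.74, was the largest part of the summed signal on each array. Ckm was so on the CCl4 2-week miR-29a array alone, and Myh2 and Myl1 on the CCl4 2-week NC array alone. Tnnt3 was so on the CCl4 NC arrays of both weeks. Both Tpm2 probes had their lowest values on the TAA 1-week miR-29a array and their highest on the CCl4 2-week NC array. Among the 3 arrays, Des was well above background on both NC arrays and not on the miR-29a array. The part of these cell types in the member values was not tested.

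Whether the effect of the agent differed between weeks, or that of miR-29a between agents or weeks, was tested as an interaction. For agent by week 1 of the 8 member probes, that of Des, was at an unadjusted p under 0.05 in limma. Among all probes that share was at least 11.8%, since an adjusted p is never below its unadjusted p. Limma called 2935 probes (11.8% called) and 0 of the 8 member probes. Without either TAA 1-week array that count was 3432 (miR-29a left out) or 3760 (NC left out), and without any 1 of the other 6 arrays it was 0. Des had the largest such term of the members, 1.36 ± 0.38 (unadjusted p = 0.0137, adjusted p = 0.0752), but it uses the readings of 4 arrays on which Des was not well above background, both arrays of the TAA NC pair among them. The adjusted p lay between 0.0255 and 0.977 under other processing, and the term was −0.0068 with another background correction (normexp). The second Tpm2 probe had 0.96 ± 0.39 and Acta2 0.23 ± 0.50. Limma called 0 member probes and 0 of all probes for either interaction of miR-29a, with 1.36% (by agent) and 1.73% (by week) of all probes at an unadjusted p under 0.05.

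The 4 remaining genes, all known from mature smooth muscle, were seen on few arrays. Cnn1 (mm9 chromosome 9, 21913058 to 21913117), the smooth muscle calponin, had a level of −0.37 on the CCl4 1-week miR-29a array and −2.32 on the TAA 1-week NC array. On the other 6 arrays it was not well above background, with readings between −5.60 and −3.61. Actg2 (83462904 to 83462963) read −1.44 on the CCl4 1-week miR-29a array and between −5.71 and −2.90 elsewhere, never well above background. Myh11 (mm9 chromosome 16, 14202190 to 14202249) read −2.87 on that same array and between −5.82 and −3.13 elsewhere. Lmod1 (mm9 chromosome 1, 137264581 to 137264640) read −2.55 on the TAA 2-week miR-29a array and between −5.72 and −4.80 elsewhere.

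The array with the highest Acta2 level, CCl4 1-week miR-29a, was thus the one on which 3 of these genes were seen. Against its NC partner Cnn1 was at least 9.12-fold higher, Actg2 at least 4.34-fold higher and Myh11 at least 1.61-fold higher. Against the CCl4 2-week miR-29a array, the later array read at least 8.73-fold lower for Cnn1, 4.15-fold lower for Actg2 and 1.54-fold lower for Myh11, as lower bounds. For Cnn1 the TAA 1-week pair ran the other way, at least 1.96-fold lower with miR-29a. Lmod1 was at least 1.56-fold higher with miR-29a in the TAA 2-week pair. It was among 827 probes (1.49% of all) well above background on the TAA 2-week miR-29a array alone. Each bound sets the array with signal against the higher of the dim reading and the lowest signal marked well above background on the dim array. An unmarked reading can lie above that lowest signal, as Cnn1 did on the CCl4 2-week NC array (−3.61 against −4.07), so the bounds are approximate. As 1 array against 1 array none has a replicate check. Within the CCl4 1-week pair 1.14% of all probes tested, a set that holds none of these 3 genes, were over 2-fold higher with miR-29a. On that miR-29a array alone 344 probes (0.618% of all) were well above background, Actg2 and Myh11 among them but not Cnn1. Of the 8 measured vascular smooth muscle and pericyte markers, 4 were higher and 4 lower with miR-29a in that pair (median −0.08). The summed signal of all 14 on the array was 324 with miR-29a and 450 with NC. Mcam, with a level of 8.30 with miR-29a and 8.78 with NC, was most of both sums, so they say little about the other markers. Cspg4, Olfr78 and Npnt were above background on no array.

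**Figure D4:**
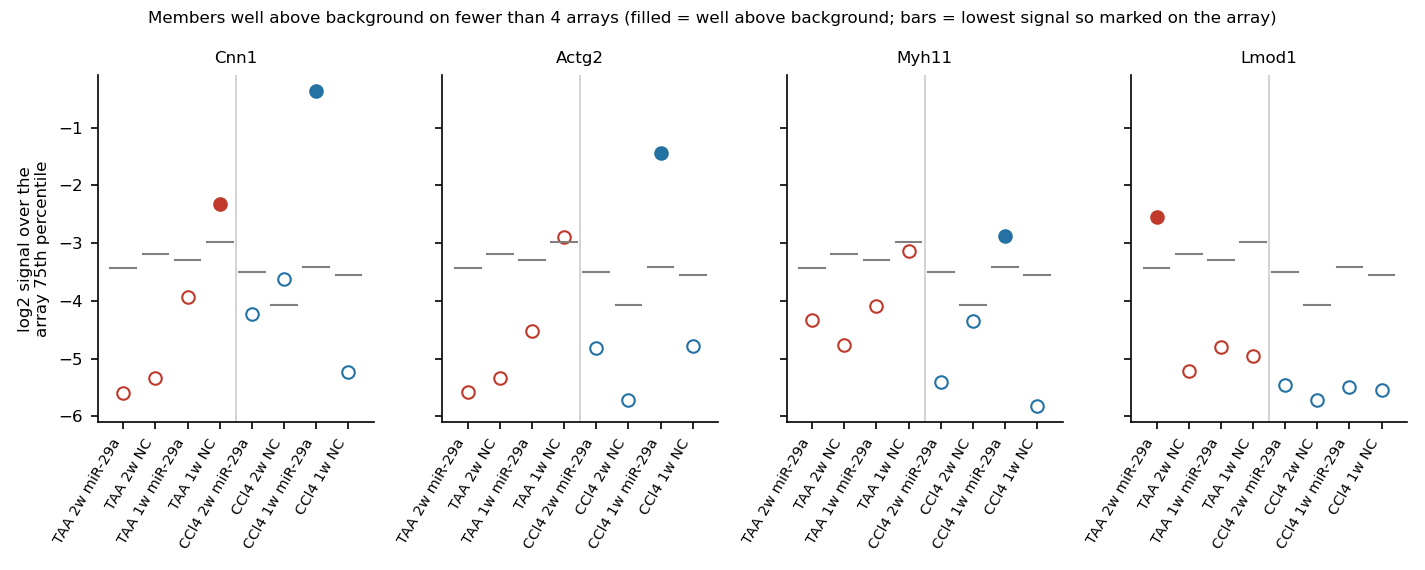
Levels of Cnn1, Actg2, Myh11 and Lmod1 on the 8 arrays (y axis, log2 signal over the array's 75th percentile), filled where well above background, with a grey bar at the lowest signal so marked on each array. Cnn1, Actg2 and Myh11 have a filled point on the CCl4 1-week miR-29a array, Cnn1 also on the TAA 1-week NC array, and Lmod1 on the TAA 2-week miR-29a array alone.

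Around these members, 38 other genes of the contractile apparatus were listed and 32 were measured. In limma 0 passed in the 3 comparisons, with 3 (week), 7 (agent) and 1 (oligonucleotide) at an unadjusted p under 0.05, where 5.04%, 27.4% and 2.61% of all probes were. Their means split 12 higher and 20 lower at 2 weeks, 15 and 17 under TAA, and 15 and 17 with miR-29a. Actn1, an actinin that crosslinks actin, was at −0.64 ± 0.11 and Csrp1, a LIM protein of smooth muscle, at −0.52 ± 0.19 for 2 weeks against 1 week, while Hspb6, a small heat shock protein of muscle, was at 0.53 ± 0.16. For TAA against CCl4, Tpm1, another tropomyosin, was at −0.83 ± 0.23, beside 0.68 ± 0.13 for Ldb3, a Z-disc protein, and 0.68 ± 0.19 for Synm, an intermediate filament partner of desmin. With miR-29a, Tpm4 was at −0.43 ± 0.14, Lmod3 at −0.30 ± 0.20 and Nexn, an actin-binding protein, at −0.29 ± 0.14. Each of these 9 had one sign in all 4 pairs, which was the rule for naming it. Of all probes, 6.11% were higher and 5.79% lower at 2 weeks in all 4 pairs, 11.2% and 25.2% under TAA, and 9.98% and 5.71% with miR-29a.

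Of 22 listed genes of contraction signalling, 18 were measured and 0 passed limma in the 3 comparisons, with 4 at an unadjusted p under 0.05 for the agent, against 27.4% of all probes, and 0 for the week and for the oligonucleotide. Agtr1a, the angiotensin receptor, was at −0.85 ± 0.19 and Ppp1cb, the catalytic subunit of myosin phosphatase, at −0.62 ± 0.14 under TAA, with Rgs2, a brake on such receptors, at 0.81 ± 0.31. With miR-29a Rhob, a small GTPase, was at −0.58 ± 0.30. Its difference was −1.755 in the TAA 1-week pair and between −0.34 and −0.085 in the other pairs. Gucy1b3 was at −0.30 ± 0.26 and Ednra, an endothelin receptor, at −0.12 ± 0.11 with miR-29a. Among 14 regulators of the SRF system 9 were measured and 0 passed limma, with 2 (agent), 1 (oligonucleotide) and 0 (week) at an unadjusted p under 0.05, beside the same shares of all probes. Myocd, the smooth muscle coactivator myocardin, was well above background on no array. Srf itself was at −0.29 ± 0.16 under TAA, with all 4 pairs lower (between −0.58 and −0.02), as were 25.2% of all probes. Mkl1, a myocardin-related coactivator, was at −0.34 ± 0.17 at 2 weeks. Mef2a, a muscle transcription factor, was at −1.32 ± 0.33 under TAA.

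Genes with the pattern most like that of Acta2 were sought by Pearson's r over the 8 arrays among 16238 genes well above background on all of them, as a description with no test. Of the 8 highest, 4 have a gene symbol in the files: Kdm3b, a histone demethylase (r = 0.957), Anxa11, an annexin (0.955), Eif4ebp1, a translation repressor (0.945), and Gm13304 (0.941). Against the mean of the 6 members, those of the 8 highest with a gene symbol were Wfdc13 (0.973), Csk, a kinase that restrains Src (0.953), BC030476 (0.946), Olfr1466 (0.945), Ptpre, a tyrosine phosphatase (0.943), and Tspan2, a tetraspanin (0.941). The arrays differ in agent, week and oligonucleotide, so these r values hold the differences between groups. Only 0.203% of the genes for Acta2 and 0.289% for the members' mean had an r above 0.9, and no member was eligible for these lists.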

How the data were processed

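Liver RNA of 8 samples was hybridised to one-colour (Cy3) arrays, 1 per combination of agent, week and oligonucleotide, with groups taken from the labels. Spot intensity came from Agilent Feature Extraction (version 10.10.1.1), per the file headers, and background was subtracted by that program before the authors deposited the values. The deposited flags (another kind of value, 0 or 1 per spot) mark spots well above background, outlier or saturated. A log2 matrix that the authors deposited as well differed from the log2 processed signal by 1 constant per array (to within 0.01 for 99.76% or more of 55657 probes), which puts each 75th percentile near 0. Genes were not centred in it. Under TAA its columns had medians of −3.57 with miR-29a and −3.73 with NC at 2 weeks, and −3.47 with miR-29a and −3.46 with NC at 1 week. Under CCl4 they were −3.81 with miR-29a and −3.87 with NC at 2 weeks, and −4.07 with miR-29a and −4.04 with NC at 1 week. The values themselves thus settle scale, centring and direction, while the authors' steps are not given in the sources used here.

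There were 62976 spots per array, 59305 of them non-control, and 0 saturated. Control spots and outlier spots (126 to 196 per array) were left out, which removed 24 of 55681 probes. Repeat spots were averaged per probe. Each level is log2 of the processed signal divided by the 75th percentile of its array. A probe with several spots counted as well above background where at least 50% of its spots did. Probes so marked on at least 4 arrays went into limma 3.58.1 under R 4.3.3 (files read by the data.table package, version 1.17.8), with agent, week and oligonucleotide as additive terms (4 residual degrees of freedom), and p-values were adjusted over all 24890 probes (Benjamini-Hochberg, 0.05). Interactions added 1 term each. The fit was tested on simulated data. Where a probe was not well above background on one side, an approximate bound is given in place of a fold. Alternatives were normexp (offset 50), quantile normalization, array median scaling, the authors' matrix, other filters, other rules for several probes, matched combinations as a block, and leaving out arrays or pairs.

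The labels give each group 1 sample, so the numbers of replicates pair nothing. The pairs used are the matched combinations of the design. Named are all members and, of each other list, up to 3 genes per comparison with the largest mean difference among those of one sign in all 4 pairs, of which the text gives part. Pi16, Mfap4, Krt8, Mcam and the skeletal muscle genes were named after their values were seen. The members and lists were chosen with earlier results of these data known. Probe coordinates are the files' (mm9). Promoter and microRNA sequences are RefSeq's, on GRCm38.p6.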

Additional observations from a re-analysis of the deposited data

Results flagged for a closer look

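4 readings lay outside the tested set because their genes were well above background on fewer than 4 arrays, yet they were well above background on an miR-29a array and not on its NC partner. On the CCl4 1-week miR-29a array these were Cnn1 at −0.368, Actg2 at −1.44 and Myh11 at −2.87, while the NC partner read −5.23, −4.78 and −5.82 for the same genes. On the TAA 2-week miR-29a array it was Lmod1 at −2.55, while the NC partner read −5.21. Of all probes, 827 (1.49%) were well above background on the TAA 2-week miR-29a array alone. On the CCl4 1-week miR-29a array alone 344 (0.618%) were. Cnn1 was also well above background on the TAA 1-week NC array (−2.32) and not on its miR-29a partner. These are single arrays, and the differences were not tested.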

How the results depend on the processing

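With 1 array per combination and 4 residual degrees of freedom, small differences cannot be told from spread, and Des lies near background. Over 25 results for the members, 535 refits gave 490 values on the main value's side of 0 and of the threshold, 32 on the other side of 0 and 13 that newly passed the threshold. The count of called probes was 0 for miR-29a under every alternative run. For TAA against CCl4 it was 6 with normexp, 9 with quantile normalization, 4874 with the array median, 6393 without the CCl4 2-week pair, 7431 without the TAA 2-week pair, and between 0 and 1 with single arrays left out (1 without the CCl4 1-week miR-29a array). For the week it was 851 without the TAA 1-week pair. For agent by week it was 5125 with normexp, 4931 with the array median, 0 with no filter (9044 at an unadjusted p under 0.05), 1818 with the brightest probe per gene, 1838 with the mean of detected probes, and between 0 and 3760 with single arrays left out. Some differences turned sign. With normexp Des was at 0.029 for miR-29a, 0.025 for TAA, −0.091 for the week and −0.0068 for agent by week. With the array median Cnn2 was at −0.28 and its second probe at −0.26 for TAA, and the second probe at −0.044 for miR-29a. That probe's miR-29a value was also −0.0051 with quantile normalization, −0.23 with the mean of detected probes, −0.0044 without the CCl4 1-week pair and −0.14 without the TAA 2-week pair. Without the CCl4 2-week pair Myl9 was at 0.054 for miR-29a. Des was at 0.50 for TAA without the CCl4 1-week or the TAA 1-week pair, and at −0.56 for the week without the TAA 1-week or the TAA 2-week pair. With single arrays left out, miR-29a differences lay between −0.33 and 0.10 for Myl9, −0.53 and 0.074 for Des, −0.45 and 0.051 for the second Tpm2 probe, and −0.12 and 0.11 for the second Cnn2 probe. They kept their sign for Acta2 (0.20 to 0.60), Tagln (−0.47 to −0.087), the brighter Cnn2 probe (−0.65 to −0.25) and the brighter Tpm2 probe (−0.59 to −0.0050). TAA differences lay between −0.49 and 0.036 for Des and −0.082 and 0.33 for Cnn2, and the week difference of Des between −0.18 and 0.43. The Acta2 week difference lay between −1.60 and −1.18 with single arrays left out and between −1.53 and −0.98 otherwise, with adjusted p between 0.0896 and 1.00, and that of Tagln between −0.94 and −0.55. The cause of these shifts was not tested. With the matched combinations as a replicate block limma called 0 probes in each of the 3 comparisons (1442, 5517 and 998 at an unadjusted p under 0.05 for miR-29a, TAA and the week), and no member's call differed. Counting a probe as detected by any of its spots, chosen after seeing the data, gave 0 calls in the 3 comparisons and 2935 for agent by week. A block by slide or scan was not run, since all arrays share both.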
